A study of Arabidopsis thaliana with 8 samples.

Results

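The comparison described here sets *Arabidopsis* inflorescences overexpressing *IaTCP1*, from the crucifer *Iberis amara*, directly against those overexpressing its ortholog *TCP1* from *Arabidopsis* itself. It uses 4 of the 8 ATH1 arrays of the series, the 2 titled 35S::IaTCP1 and the 2 titled 35S::TCP1, over all 22746 probe sets that are no hybridization controls. The other 4 arrays, 2 of plants with the empty pBAR vector and 2 of 35S::CYC plants carrying the snapdragon gene, add to the estimate of spread and serve as reference levels, but enter no mean of the contrast. All plants were Columbia T2 plants, and the transgenes stood in the pBAR vector under the CaMV35S promoter, which is active in nearly all tissues. The RNA came from side inflorescences before any flower had opened, and transgenic plants were picked for visibly altered flowers. Each construct was represented by 1 transgenic line, and the methods call the 2 RNA samples of a line technical. A p-value therefore covers the spread between RNA samples, and the transgene and the individual line cannot be told apart. No probe set is paired with *TCP1* in the tables used, and *IaTCP1* is foreign to the array, so the level of neither transgene is analysed here.

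TCP proteins are plant-specific transcription factors that control growth by acting on cell division and cell expansion. Members of the *CYC2* clade, to which all the transgenes belong, are known for setting up bilaterally symmetric flowers. In *Iberis*, the adaxial petals remain small and carry most of the *IaTCP1* transcript, whereas the *Arabidopsis* flower has petals of equal size. Overexpression of either crucifer gene is known to give smaller petals in *Arabidopsis*, and that of *CYC* larger ones. The direct contrast asks at which genes the orthologs part.

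Values are log2 intensities after RMA normalization, so a difference of 1 stands for a 2-fold difference in signal. A call required a difference of at least 2-fold and, in limma, a p of at most 0.05 after Benjamini-Hochberg adjustment over all probe sets. By this rule, 68 probe sets were higher for *IaTCP1* than for *TCP1* (0.299% of those tested) and 78 were lower (0.343%). All 146 probe sets past the fold minimum also passed the test. At an unadjusted p under 0.05, 9.49% of all probe sets were higher and 9.21% lower. Over all probe sets, the median absolute difference was 0.102, and for 98.6% the 95% interval of the difference lay within 2-fold either way. The 2 arrays of a group correlated with r between 0.9967 and 0.9981. Neither group's arrays overlapped those of the other at any called probe set, as was the case for 43.3% of all probe sets. Of the 146, 124 name a single gene, 47 of them only through the study's own tables. Those tables list genes for their change against the empty vector on these same arrays, so such genes are no independent sample.

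**Figure D1:**
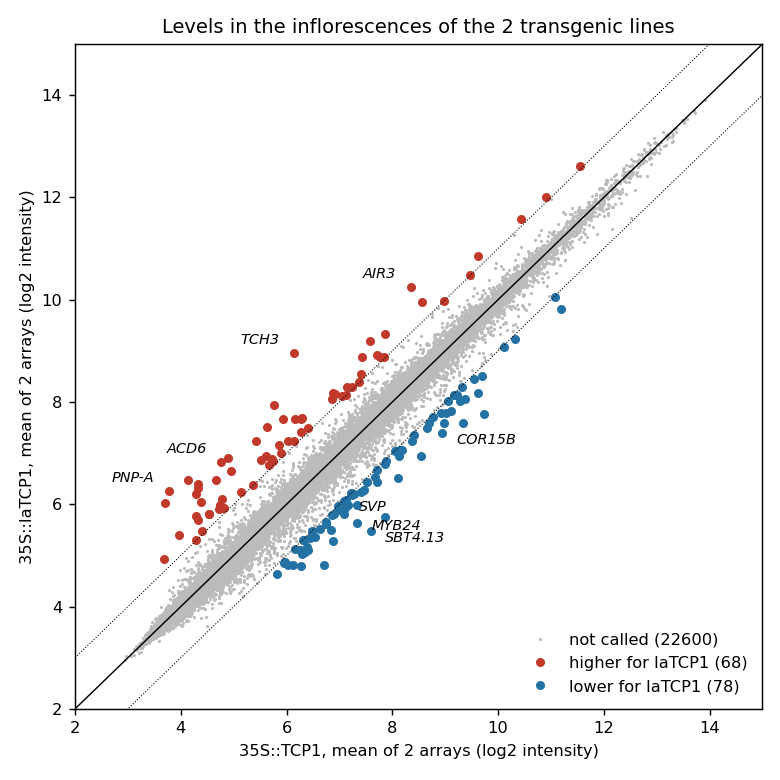
Mean log2 intensity of each probe set on the 2 35S::IaTCP1 arrays (vertical axis) against that on the 2 35S::TCP1 arrays (horizontal axis). Red points are the 68 probe sets called higher and blue points the 78 called lower, the solid line marks equal levels and the dotted lines a 2-fold difference.

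The called genes in the 2 directions differed in where the other groups stood. The 78 lower probe sets were mostly high in control inflorescences, with a median level of 8.44 for the empty vector, 7.88 for *CYC*, 7.50 for *TCP1* and 6.23 for *IaTCP1*. At 61 of them (78.2%) the *TCP1* level lay between those of the empty vector and *IaTCP1*, a place it had at 36.0% of all 11065 probe sets with a lower value for *IaTCP1*. The *IaTCP1* level lay between the others at 10 (12.8%, against 45.5%), and the empty vector level at 7 (8.97%, against 18.5%). The 68 higher probe sets had median levels of 5.62, 6.31, 5.81 and 7.24 in the same order of groups. *TCP1* lay in between at 41 of these (60.3%, against 49.5% of all 11681 probe sets with a higher value) and the empty vector at 27 (39.7%, against 25%). *IaTCP1* lay in between at 0 of the 68, against 25.5% of all probe sets with a higher value. These places are a description without a test, since the called probe sets were chosen by their *IaTCP1* and *TCP1* levels.

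**Figure D2:**
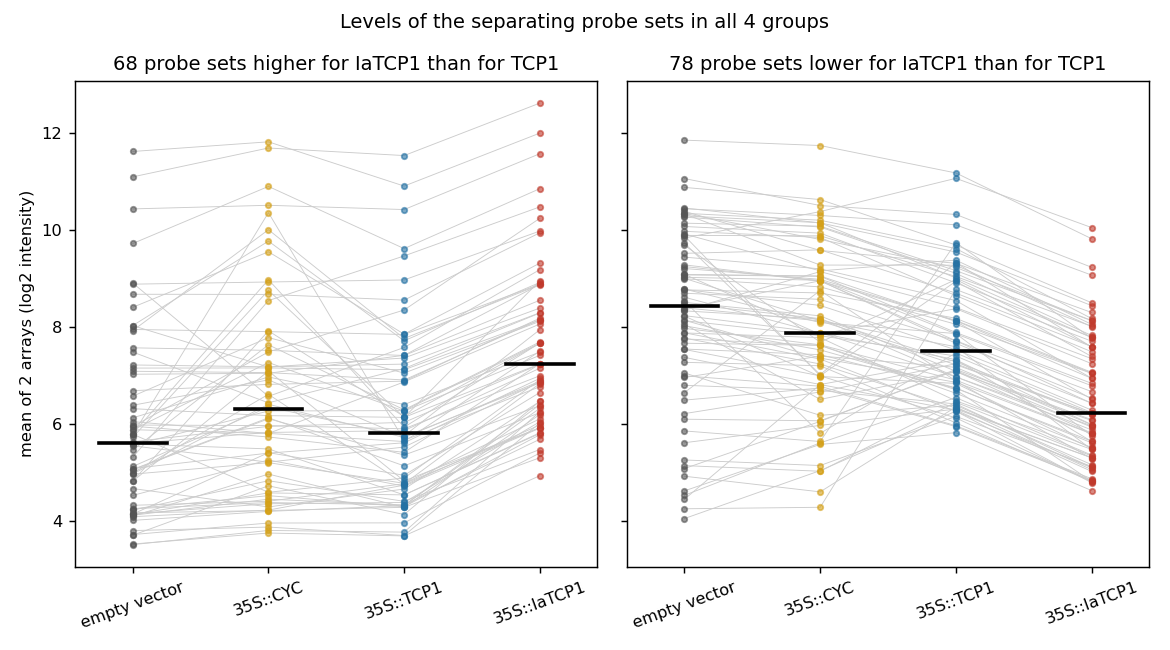
Mean log2 intensity (vertical axis) of the called probe sets in the 4 groups (horizontal axis), with grey lines joining the values of a probe set and black bars at the group medians. In the 68 higher probe sets (left) the bar stands at 7.24 for *IaTCP1* and at 5.81 or less for *TCP1* and the empty vector, while in the 78 lower ones (right) it steps from 8.44 for the empty vector to 7.50 for *TCP1* and 6.23 for *IaTCP1*.

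The highest differences belonged to *TCH3* and *PNP-A*. *TCH3*, a calmodulin-like gene induced by touch, had 8.93 and 8.98 on the *IaTCP1* arrays, 6.01 and 6.26 on the *TCP1* arrays and 5.66 and 5.79 with the empty vector. Its *CYC* arrays, at 8.71 and 8.81, stood with those of *IaTCP1*. The direct difference of 2.82 (standard error 0.10, adjusted p = 6.28e-08, limma) was the highest of all. *PNP-A*, which encodes a secreted natriuretic peptide related to expansins, had 6.19 and 6.31 for *IaTCP1* against 3.86 and 3.67 for *TCP1*. Here the empty vector arrays (3.46 and 3.56) and the *CYC* arrays (3.72 and 3.88) joined the low group, at levels that may be no more than array background. The measured difference of 2.49 (standard error 0.10, adjusted p = 6.28e-08) carries that limit. *AIR3*, a subtilisin-like protease gene first described in lateral root formation, was raised in every transgenic group. It had 10.38 and 10.11 for *IaTCP1*, 8.26 and 8.45 for *TCP1*, 7.53 and 7.45 for *CYC* and 6.03 and 5.87 for the empty vector. The orthologs were thus 1.89 apart (standard error 0.11, adjusted p = 1.64e-06) without any overlap between the 4 groups.

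Among salicylic acid and defence genes, 11 of 32 listed genes had a named probe set. Of these 11, 5 were higher for *IaTCP1* and 0 lower in limma, with 6 above and 1 below at an unadjusted p under 0.05, and their median difference was 0.88 against 0.0048 over all probe sets. All 5 called genes are among the 8 named only by the study's tables, and the other 3 had a median of 0.03. *ACD6*, a membrane protein that sets the level of salicylic acid signalling, had 6.82 and 6.85 for *IaTCP1* and 4.79 and 4.74 for *TCP1*. *CYC* (6.58 and 6.64) again resembled *IaTCP1*, and *TCP1* lay slightly under the empty vector (4.98 and 4.99). *BGL2*, the pathogenesis-related glucanase PR2, measured 6.58 and 6.71 against 5.04 and 4.85, with 4.13 and 4.15 in the control, a direct difference of 1.71 (adjusted p = 1.07e-06).

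For a few defence genes the means of the orthologs lay on opposite sides of the control mean. *LURP1*, which is needed for basal defence against a downy mildew, had 6.82 and 7.01 for *IaTCP1*, 5.6 and 5.97 for the empty vector and 4.95 and 4.81 for *TCP1*. All *IaTCP1* arrays stood above, and all *TCP1* arrays below, the control arrays, and the difference was 2.03 (standard error 0.12, adjusted p = 1.64e-06). *PCC1*, controlled by pathogens and the circadian clock, had 9.08 and 9.29, 8.83 and 8.99, and 7.30 and 7.86 in the same order. Its *IaTCP1* mean exceeded the control by only 0.28 (adjusted p = 0.246, limma). *DMR6*, an oxygenase that breaks down salicylic acid, differed by 1.15 between means of 8.29 and 7.14, with the control at 7.48. *PR5*, another marker of this pathway, went the other way without being called, with means of 5.62 for *IaTCP1*, 6.19 for *TCP1* and 8.02 for the control. At *LURP1*, *PCC1* and *DMR6*, the *CYC* means of 4.59, 6.57 and 6.44 lay under those of *TCP1*.

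Further genes near the top of the list were highest on the *IaTCP1* arrays, and *scpl44*, *AGL91* and *XBAT34* stood alone there. *scpl44*, a serine carboxypeptidase-like gene, had 6.26 and 5.78 for *IaTCP1*, while the 6 arrays of the other groups lay between 3.68 and 3.95. *AGL91*, a MADS box gene, had 6.39 and 6.41 against 4.0 to 4.36 elsewhere, and *XBAT34*, an ankyrin repeat protein of the XB3 family, 6.35 and 6.29 against 4.1 to 4.45. *HR4*, a homolog of the RPW8 resistance proteins, had 7.91 and 7.99 for *IaTCP1*, 6.37 and 6.32 for *CYC*, 5.73 and 5.77 for *TCP1* and 5.08 and 5.17 for the empty vector. *scpl44*, *AGL91* and *XBAT34*, like *PNP-A*, are low in every other group, and the files hold no detection call, so their level there may be no more than array background. The differences of *scpl44*, *HR4*, *AGL91* and *XBAT34* were between 2.0 and 2.32. AT1G35710, a receptor kinase with leucine-rich repeats, AT3G60420, of the phosphoglycerate mutase family, AT5G19240 and the transcription factor gene *NAC001* followed with 1.91, 1.86, 1.83 and 1.81.

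Of the touch and early stress genes, 17 of 29 were measured by name, of which 3 were called higher and 0 lower (limma; 13 above and 1 below at an unadjusted p under 0.05), with a median of 0.45. All 3 called genes are named only by the study's tables, and 0 of the 5 named by the platform's table were called, 3 above and 0 below at an unadjusted p under 0.05, with a median of 0.33. Besides *TCH3* the called genes were *WRKY46*, a transcription factor of basal defence, and *TCH4*, a xyloglucan endotransglucosylase/hydrolase that remodels cell walls. *WRKY46* had 6.80 and 6.93 for *IaTCP1* against 5.52 and 5.53 for *TCP1*, which was near the control (5.49 and 5.6). *TCH4* had 6.81 and 6.73 against 5.70 and 5.63, a difference of 1.11 (adjusted p = 1.04e-05), but both orthologs were far below *CYC* at 10.32 and 10.41. The cold regulator *DREB1A* was the exception in direction, with means of 5.00 for *IaTCP1*, 5.90 for *TCP1* and 6.66 for the control. Of 9 named heat shock genes, all lay above 0 with a median of 0.28, and the chaperones *HSP70* (7.74 and 7.60 against 6.13 and 5.73) and *HSP90.1* (6.41 and 6.06 against 5.29 and 4.98) were called. Both are named only by the study's tables, and the 5 named by the platform's table had 0 calls (2 above and 0 below at an unadjusted p under 0.05) and a median of 0.20. The difference of *HSP90.1* fell to 0.93 without the first *IaTCP1* array and to 0.94 without the second *TCP1* array.

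**Figure D3:**
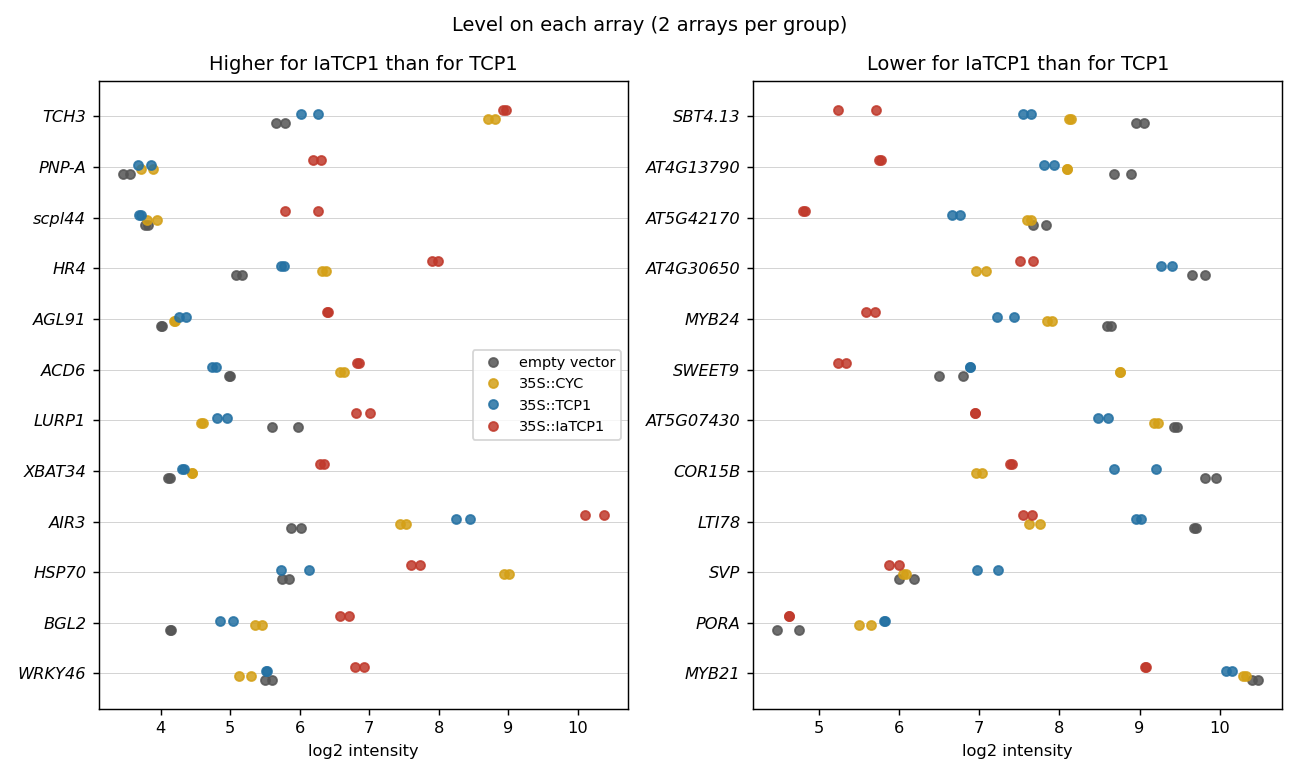
Log2 intensity (horizontal axis) of 12 genes called higher (left) and 12 called lower (right) for *IaTCP1* than for *TCP1*, with 1 point per array and 1 colour per group. *TCH3* stands near 8.9 on the *IaTCP1* arrays and at 6.26 or less on those of *TCP1*, and *SBT4.13* at 5.71 or less against at least 7.55.

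A run of neighbouring genes on chromosome 5 made up part of the higher set. Along the chromosome, in the gene order of the TAIR10.1 annotation, 27 genes with a named probe set lie from AT5G08270 to AT5G08580. The *IaTCP1* level was above that of *TCP1* at 26 of the 27, against 50.2% of genes off the run. At 24 it was higher by more than 1.5-fold, against 0.926% off the run. At 26 both *IaTCP1* arrays were also above all 6 other arrays, a count not made for other genes. The median difference between the orthologs was 0.96, a fold of 1.95, with quartiles at 0.81 and 1.03, and that against the empty vector 0.97, a fold of 1.97. *TCP1* and *CYC* stayed near the control, with medians of 0.06 and -0.02. The members include *ILP1*, a nuclear GC-rich sequence binding factor, *AGAL1*, an alpha-galactosidase, and AT5G08420, an RNA-binding KH domain protein. The run and its ends were picked out after its values had been seen, and no test was made on it as a group.

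Genes of high and of middle signal were among those of the run that shifted. AT5G08300, one of the brightest, had 11.57 and 11.59 for *IaTCP1* and 10.40 to 10.55 on the other 6 arrays. *ILP1*, of middle signal, had 8.14 and 8.17 against 6.83 to 7.19. The TCP gene listed as *TCP11* (AT5G08330) lies in the run as well, with 8.68 and 8.68 for *IaTCP1*, 7.80 and 7.82 for *TCP1* and 7.52 and 7.68 for the control. Its difference of 0.87 (standard error 0.09, adjusted p = 6.36e-05) remained under the fold minimum. The 4 other TCP genes with a name (out of 24 listed) differed by -0.11 to 0.20.

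The 3 members with the smallest differences, AT5G08305 (0.48), AT5G08360 (0.18) and AT5G08460 (-0.09), were dim, with control means of 4.41, 4.70 and 4.76. At the edges the pattern stopped within a few genes. The 5 genes that follow, from AT5G08600 to AT5G08750, had a median of -0.16, and the 3 from AT5G08180 to AT5G08240 one of -0.07. In between, AT5G08250 differed by 0.92, yet its *IaTCP1* mean was close to that of the control (5.92 and 5.97) and its *TCP1* level was lower (5.00), and *scpl35* differed by 0.61. Of the 27 genes, 9 were called, and leaving them out reduces the higher set from 68 to 59 probe sets. Probe sets that name no single gene could not be placed along the chromosome, so the run may hold more of the higher set. Running medians over 7 neighbouring genes, taken along all 5 chromosomes over 13641 genes, reached 1.02 here and at most 0.36 outside this stretch. Whether this stretch belongs to the transgene or to the individual line cannot be told apart with 1 line per construct.

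**Figure D4:**
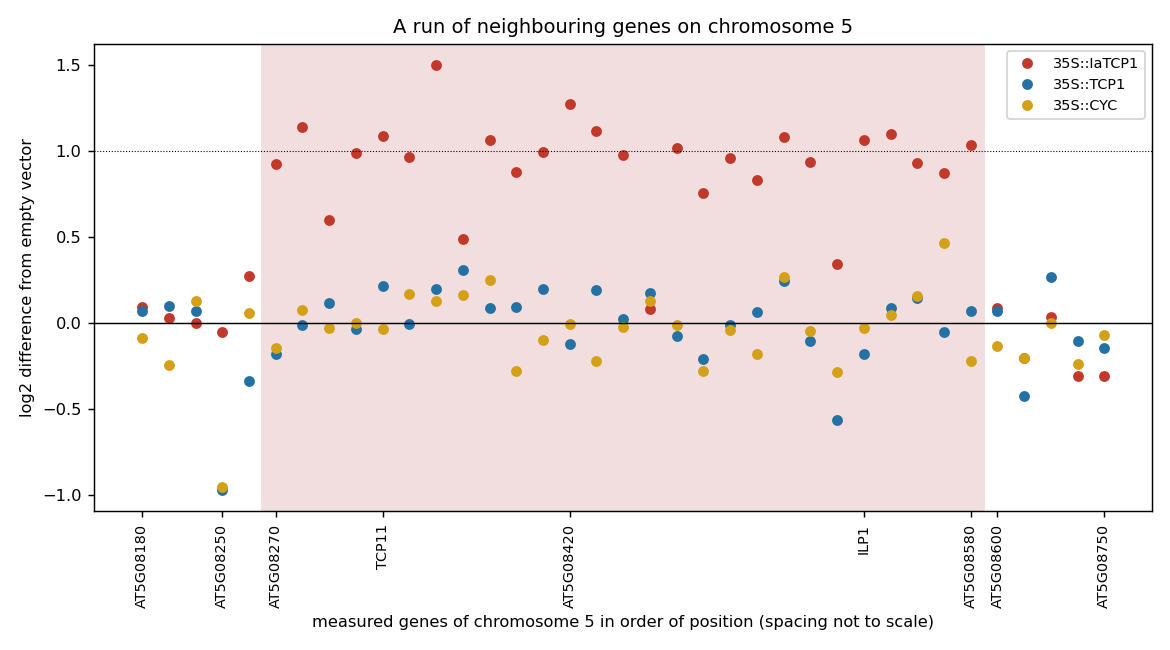
Log2 difference from the empty vector (vertical axis) of the measured genes of chromosome 5 from AT5G08180 to AT5G08750, in their order along the chromosome (horizontal axis, some names given), for the 3 transgenes. Over the shaded 27 genes the *IaTCP1* points have a median of 0.97, while those of *TCP1* and *CYC* stay around 0 (medians 0.06 and -0.02).

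Genes of late anther and pollen development recurred in the lower set. From a list of 55 markers of mature pollen and pollen tubes, 28 had a named probe set. In limma 7 of these were called lower and 0 higher (25 below and 0 above at an unadjusted p under 0.05), and the median difference was -0.71. For the 13 named by the platform's table, the count was 5 lower and 0 higher, with a median of -0.35. The mean level of the list was 5.88 and 5.89 on the *IaTCP1* arrays, 6.52 and 6.56 for *TCP1*, 7.27 and 7.25 for *CYC* and 7.45 and 7.43 for the empty vector. Over the 13 named by the platform's table it was 5.36 and 5.37, 5.97 and 5.96, 6.55 and 6.57, and 6.67 and 6.69 in the same order of groups. With or without the names from the study's tables, the orthologs were thus both below the control, *IaTCP1* more so, and none of the groups overlapped. In whole inflorescences, fewer cells of a type and less RNA per cell cannot be told apart, and the part that these markers have in the rest of the lower set was not tested.

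Called members of this list included genes that act on pectin, which the pollen tube remodels as it grows. The pectin methylesterase gene AT5G07430 had 6.95 and 6.94 for *IaTCP1*, 8.61 and 8.48 for *TCP1* and 9.46 and 9.42 for the empty vector, and differed by -1.60 (standard error 0.09, adjusted p = 7.57e-07). *CYC*, at 9.17 and 9.23, was close to the control. The polygalacturonase gene AT3G07820 followed the same order, with 7.76 and 7.81, 9.09 and 8.94, and 10.28 and 10.31, as did AT5G07420 (5.68 and 5.54, 6.76 and 6.73, 8.0 and 8.06). *VGDH2*, related to the pollen tube pectin methylesterase VANGUARD1, differed by -1.03, and the inhibitor-like gene AT2G47050, which is not on the list, by -1.44. Among the 6 probe sets whose symbols place them in the pectin methylesterase and inhibitor family, *VGDH2* was the only one called, with 3 above and 3 below 0 and a median of 0.00. AT5G45880, of the pollen allergen Ole e 1 family, differed by -1.16 and the arabinogalactan protein gene *AGP40* by -1.03. Next to the threshold stood *sks12* (-1.0) and *PGA4* (-0.96), and *AGL65*, a MADS box gene of pollen, was the only member above 0 (0.21).

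The tapetum feeds developing pollen and makes its wall. Of 14 named genes of this tissue (31 listed), 0 were called in limma, 3 above and 1 below at an unadjusted p under 0.05, and the median was 0.13. *AMS*, a tapetum transcription factor, had means of 8.33 for *IaTCP1*, 8.19 for *TCP1*, 8.90 for the control and 7.09 for *CYC*. Largest among them were *GRP16*, a pollen coat oleosin (0.51), and *CALS5*, a callose synthase (-0.44). Too few genes of dividing cells (3 of 30) and of floral organs (3 of 25) were named to describe these groups, and their differences lay between -0.18 and 0.18.

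Regulators of stamen maturation also stood in the lower set. *MYB24*, which acts downstream of jasmonate in filaments and anthers, had 5.70 and 5.58 for *IaTCP1*, 7.43 and 7.23 for *TCP1*, 7.90 and 7.84 for *CYC* and 8.6 and 8.64 for the empty vector. The 4 groups did not overlap, and the direct difference was -1.69 (standard error 0.10, adjusted p = 1.07e-06). Its partner *MYB21* had 9.07 and 9.08 against 10.07 and 10.15, a difference of -1.04, and a second probe set of the gene one of -0.98. The call of *MYB21* rests on the second *TCP1* array, without which the difference was -1.0 and just short of 2-fold. Of the 8 probe sets of the stamen and jasmonate list, 7 lay below 0 (median -0.52). Of these 8, 7 are named only by the study's tables, and the 1 named by the platform's table differed by -0.37 and was not called. *MYB108* had means of 4.92, 5.47 and 6.99 for *IaTCP1*, *TCP1* and the control.

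The lowest differences of all belonged to *SBT4.13*, a subtilase gene, and AT4G13790, a small auxin-up RNA (SAUR) gene. *SBT4.13* had 5.71 and 5.24 for *IaTCP1*, 7.55 and 7.64 for *TCP1*, 8.14 and 8.12 for *CYC* and 9.06 and 8.95 for the empty vector, a difference of -2.12 (standard error 0.13, adjusted p = 2.00e-06). Of 10 subtilase probe sets named by symbol, 3 lay above and 7 below 0 (median -0.06), and only *SBT4.13* was called. The subtilisin-like *AIR3*, called higher, is not among them. AT4G13790 had 5.77 and 5.75 against 7.80 and 7.93, with 8.68 and 8.89 in the control. All 8 SAUR probe sets with a name, each given only by the study's tables, lay below 0, among which AT4G12410 was also called, with a difference of -1.23. Also lower were *EXPA11*, an expansin that loosens cell walls (7.95 and 8.07 against 9.32 and 9.24), and *ATGA2OX1*, which inactivates gibberellin (6.24 and 6.34 against 7.50 and 7.43, but 5.64 and 5.97 for *CYC*). Their groups did not share this, since the 24 expansin family probe sets had 12 above and 12 below 0 (median 0.01), with *PNP-A* called higher and *EXPA11* lower, and the 7 named gibberellin genes had 5 above and 2 below (median 0.06). The esterase gene AT5G42170, at 4.80 and 4.83 against 6.76 and 6.66, the fatty acid elongase *KCS17*, with a difference of -1.16, and *CYP76C3*, a cytochrome P450 gene of linalool metabolism in flowers, with -1.13, were lower too. AT3G01240 and AT4G16146 differed by -1.60 and -1.34. At all 7 genes *TCP1* lay between the control and *IaTCP1*. The families of *KCS17* and *CYP76C3* did not share the drop. Of 4 named 3-ketoacyl-CoA synthase genes, 3 lay above and 1 below 0 (median 0.14). The 42 cytochrome P450 genes named by symbol had 22 above and 20 below (median 0.01).

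*SWEET9*, the sugar exporter of nectaries, was lower for *IaTCP1* than in every other group. Its level was 5.24 and 5.34 for *IaTCP1*, 6.50 and 6.79 for the empty vector, 6.89 and 6.89 for *TCP1* and 8.76 and 8.75 for *CYC*. The control lay between the orthologs, as it did at 7 of the 78 lower probe sets (8.97%, against 18.5% of all with a lower value). The difference between the orthologs was -1.60 (standard error 0.10, adjusted p = 2.90e-06, limma).

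Cold-regulated genes lay below 0 throughout, at all 8 of the 13 listed genes that were named (median -0.73), and 2 were called. The 4 named by the platform's table had a median of -0.83 with 1 call. *COR15B*, which protects chloroplast membranes in the cold, had 7.41 and 7.38 for *IaTCP1* and 8.68 and 9.21 for *TCP1*, a difference of -1.55 (standard error 0.14, adjusted p = 2.77e-05). The control had 9.81 and 9.96, and *CYC*, at 6.96 and 7.03, was lower than both orthologs. *LTI78*, also known as *RD29A*, had 7.66 and 7.54 against 8.95 and 9.01, again with *CYC* (7.62 and 7.75) at the *IaTCP1* level. AT4G30650, which is not on the list, had 7.50 and 7.67 against 9.26 and 9.40. *NAC019*, a transcription factor gene of abscisic acid and jasmonate responses, had 8.36 and 8.25 against 9.36 and 9.27, and its call was lost without the second *IaTCP1* array (-0.96) or the first *TCP1* array (-0.97).

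**Figure D5:**
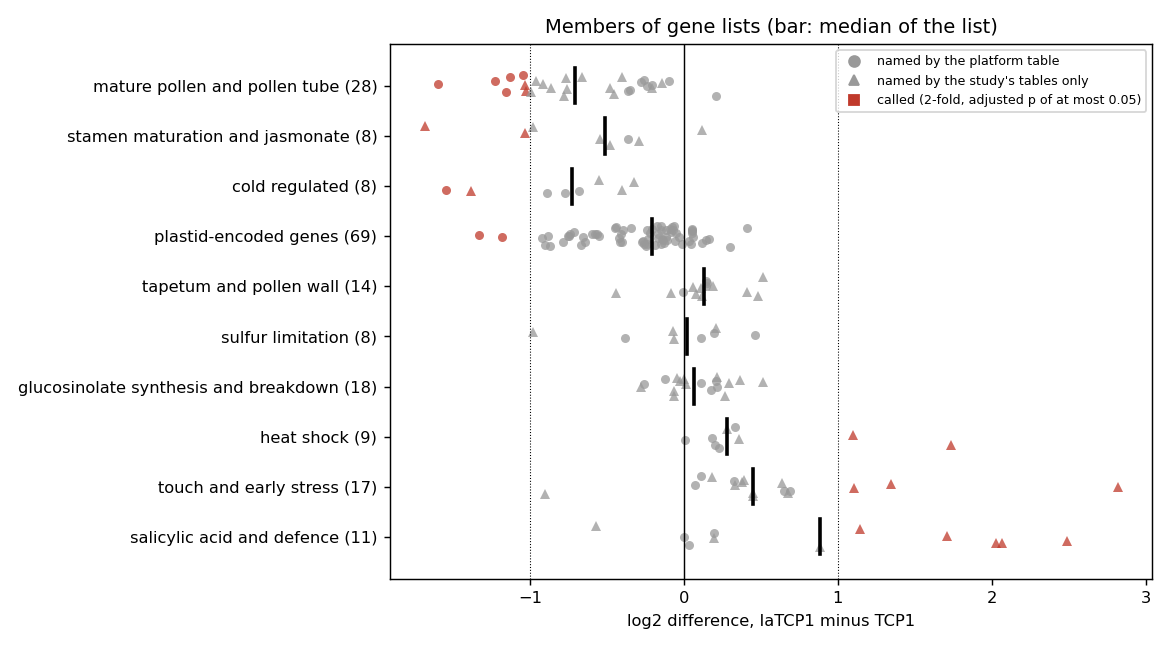
Log2 difference of *IaTCP1* minus *TCP1* (horizontal axis) for the named members of 10 gene lists (vertical axis, number of probe sets in parentheses), with circles for names from the platform's table, triangles for names from the study's tables only, red for called members and bars at the list medians. The medians run from -0.73 for cold-regulated and -0.71 for pollen genes to 0.45 for touch and 0.88 for defence genes, while those of tapetum, sulfur and glucosinolate genes lie at 0.13, 0.02 and 0.06.

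At a minority of the called genes, *TCP1* lay farther from the control than *IaTCP1* did, and those given here were higher for *TCP1*. *SVP*, a MADS box repressor of flowering, had 6.97 and 7.24 for *TCP1*, while the 6 other arrays lay between 5.88 and 6.19. The difference of the orthologs was -1.17 (standard error 0.11, adjusted p = 3.42e-05). *PORA*, an enzyme of chlorophyll synthesis, had 5.81 and 5.83 for *TCP1* and 5.65 and 5.50 for *CYC*, whereas *IaTCP1* (4.63 and 4.62) lay between the control arrays (4.48 and 4.76). AT1G74010 had 6.28 and 6.61 for *TCP1* and 5.53 or less on every other array. Without the second array of either ortholog its difference of -1.11 fell short of 2-fold (-0.92 and -0.94). The P450 gene AT3G44970 was raised for both, to 8.91 and 8.64 for *TCP1* and 7.75 and 7.67 for *IaTCP1*, from 4.27 and 4.23 in the control.

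Plastid-encoded genes also tended to be higher for *TCP1*, but with a wide spread between arrays. Of 69 such genes, 57 lay below 0, with a median of -0.21, and 2 were called lower and 0 higher in limma (18 below and 0 above at an unadjusted p under 0.05). *psaC*, of photosystem I, had 6.96 and 7.69 for *TCP1*, 5.83 and 6.14 for *IaTCP1*, 6.58 and 7.05 for *CYC* and 4.29 and 4.6 for the empty vector. The ribosomal protein gene *rps14* had 6.30 and 6.79, 5.14 and 5.58, 5.37 and 5.85, and 4.28 and 4.78. Over the 69 genes, the second array exceeded the first by a median of 0.43 for *TCP1*, 0.42 for the empty vector and 0.34 for *CYC*, each more than the median gap between the orthologs, and by -0.02 for *IaTCP1*. Without the second *TCP1* array, the difference of *psaC* was -0.97 (from -1.34) and that of *rps14* -0.94 (from -1.18), and both calls were lost, that of *rps14* also without the first *IaTCP1* array (-0.97).

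At part of the genes that moved against the control, the orthologs were close to each other. Against the empty vector, 0.976% of all probe sets were called higher and 2.35% lower for *IaTCP1*, and 0.659% and 1.25% for *TCP1*. Of the 354 called in the same direction for both, 42 were called between them, against 146 of all 22746 probe sets. For 144 of the 354, the 95% interval of the direct difference lay within 1.5-fold either way. Among the 256 that were lower for both, the *IaTCP1* level was under that of *TCP1* at 216, and among the 98 that were higher for both it was above it at 39. The 2 contrasts share their control arrays, so these counts describe size and are no measure of likeness. *SIB2*, a sigma factor binding protein gene, had 8.63 and 8.55 for *IaTCP1*, 8.59 and 8.70 for *TCP1* and 6.30 and 6.26 for the control, and its direct difference was -0.06 (95% interval -0.26 to 0.15). AT5G44580 had 8.25 and 8.35, 8.29 and 8.27, and 5.55 and 5.86, with an interval from -0.22 to 0.26, and the sugar transporter gene *SFP1* one from -0.51 to 0.13. AT5G05890 differed by 0.31 after a rise from 4.05 and 4.06 to 7.51 and 7.52 for *IaTCP1* and to 7.25 and 7.17 for *TCP1*. Among lowered genes, the peroxidase gene AT3G03670 had 4.65 and 4.59 against 4.86 and 4.91, from 7.06 and 7.13 in the control, and AT1G12080 8.08 and 7.93 against 8.26 and 8.43, from 10.47 and 10.59.

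In some lists 0 genes were called between the orthologs. Over all probe sets, calls made up 0.299% higher and 0.343% lower, so a lack of calls in lists this small says little. At an unadjusted p under 0.05, the shares of all probe sets were 9.49% higher and 9.21% lower. Of 18 named glucosinolate genes (37 listed), 0 were called in limma, with 5 above and 1 below at an unadjusted p under 0.05 and a median of 0.06, although the list lay at -0.52 for *IaTCP1* and -0.68 for *TCP1* against the control. Over the 6 named by the platform's table, these medians were -0.20 and -0.26. Of 8 named genes of sulfur limitation, 0 were called (1 above and 2 below at an unadjusted p under 0.05), with a median of 0.02 and with medians of 1.03 and 0.97 against the control (0.78 and 0.63 for the 4 named by the platform's table). *LSU1* came nearest, with means of 7.35 for *IaTCP1*, 8.34 for *TCP1* and 5.25 for the control. Of the 6 named regulators of petal and organ size (21 listed), 0 were called (3 above and 1 below at an unadjusted p under 0.05), and their differences ran from -0.24 for *BPEp* to 0.39 for *ARL*. This list lay near the control in both groups, with medians of 0.08 for *IaTCP1* and -0.06 for *TCP1*.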

How the data were processed

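Inflorescence RNA of 4 groups was hybridized to ATH1 arrays, 2 per group, a number that limits precision. According to the submitters' processing notes, which list RMA and Partek, the deposited values are RMA-normalized log2 intensities. They were taken unchanged, with array medians of 6.48 to 6.56. RMA forces the arrays to 1 distribution and compresses differences of dim probe sets. After 64 control probe sets were left out, 22746 entered a linear model with a mean for each group (limma 3.58.1 under R 4.3.3, functions lmFit and eBayes), which had 4 residual degrees of freedom and 7.9 from the prior. P-values were adjusted over all probe sets by the Benjamini-Hochberg method. A total of 13513 probe sets name 1 gene in the platform's annotation, and 428 more do so through the study's tables, from which names only were taken. Gene order and symbols come from RefSeq (TAIR10.1). Members and lists were chosen with earlier results of these data known. Genes named are the 12 highest and 12 lowest called ones without overlap of arrays, up to 4 called members per list, the 4 largest for each place of the empty vector level and 6 with near-equal responses. Others named, such as those of the chromosome 5 run, uncalled list members and *PCC1*, were chosen after their values were seen. The fit was tested on simulated arrays. Plots were made in matplotlib 3.10.9 (Python 3.11.15). Alternatives were the normalization, filter, fold minimum, test settings, replicate block and each array left out. With 2 arrays per group, single outlying arrays could not be tested.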

Additional observations from a re-analysis of the deposited data

How the results depend on the processing

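The counts of 68 higher and 78 lower probe sets depended on the fold minimum: 189 and 339 passed at 1.5-fold, and 608 and 836 with no fold minimum. A fold of 1.5 inside the test gave 55 and 57. Leaving out an empty vector or *CYC* array changed no difference, since these arrays enter no mean of the contrast. When an *IaTCP1* or *TCP1* array was left out, some calls were lost and others gained. In those fits 1 array stood for its group, so their counts are not given. Quantile normalization again (71 and 82), cyclic loess (63 and 88) and a minimum mean level of 5 (52 and 78) stayed within 1.5 times. Without the 27 neighbours on chromosome 5, an alternative added after seeing the data, 59 remained higher. The fit on 4 arrays, the variance trend, array weights and the unadjusted p left both counts as they were. None of these changes a difference, and in the main fit the fold minimum alone set the calls. The equal counts show only that p stayed under its threshold and say nothing on how stable the differences are. The replicate numbers are not stated to pair samples. Deviations of equal numbers correlated with r of 0.164 to 0.516 over the 6 pairs of groups. Adding these numbers to the model as a replicate block kept 68 and 78, but with both numbers in each group it could not change a difference either. Of 52 genes named by the rule, 46 kept their call or lack of one in each alternative that tested them, and none reversed. The minimum mean level of 5 tested 47 of the 52, leaving out *PNP-A*, *scpl44*, *AGL91*, *XBAT34* and AT1G35710. The 6 genes that changed were *HSP90.1*, *MYB21*, *NAC019*, *psaC*, *rps14* and AT1G74010, each lost without at least 1 array. With the fold of 1.5 inside the test, *HSP90.1*, *psaC*, *rps14* and AT1G74010 were lost too. Levels near 4 to 5 are close to the bottom of the array's range, which limits differences there.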

Other observations

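Among the 22 called probe sets that do not name a single gene, 1 without any name in the tables used had the lowest value. It had 7.72 and 7.83 for *IaTCP1*, 9.64 and 9.85 for *TCP1*, 5.81 and 5.90 for the empty vector and 5.58 and 5.69 for *CYC*, so that both orthologs lay above the control and *TCP1* by more. Another, shared by the glutathione transferase genes *GSTF2* and *GSTF3*, which it cannot tell apart, had a mean of 6.47 for *IaTCP1* against 4.13 for *TCP1*, 3.70 for the empty vector and 4.72 for *CYC*.

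The lowest running medians over 7 neighbouring genes lay around AT3G28780 on chromosome 3 (-0.85). There AT3G28780, AT3G28790, AT3G28830 and AT3G28840 differed by -0.85, -0.74, -0.95 and -1.08, while AT3G28760 and AT3G28770 had -0.12 and -0.28. AT3G28840 had 7.01 and 7.10 for *IaTCP1*, 8.14 and 8.13 for *TCP1*, 9.22 and 9.20 for the empty vector and 9.0 and 8.98 for *CYC*.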
